A study of Xenopus laevis with 12 samples.

Results

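Crisp1.5.S, aqp3.L and cib2.S are 3 Xenopus laevis genes chosen by their measured decrease, the lower array values in animal caps given kctd15 on top of wnt3a and chordin than in caps given wnt3a and chordin alone. Each gene had 1 probe set, so the members are 3 of the 32475 probe sets tested. Animal caps are the ectoderm cut from the top of the blastula, which forms epidermis when left alone. The arrays, of the 3' Affymetrix type, came in 4 groups of 3 samples: caps with wnt3a, chordin and kctd15 mRNA (wnt3a+chd+kctd15), caps with wnt3a and chordin mRNA (wnt3a+chd), caps labelled with kctd15 mRNA (kctd15), and control caps with lacZ mRNA (lacZ). All embryos received their mRNA at the 2-cell stage, all caps were cut at stage 9 and all were harvested at stage 15, the neurula. The study asked which genes change with kctd15 in caps turned toward neural crest. Nothing in the labels tells whether replicates were separate cultures of caps or separate clutches, and p-values measure only the spread among these samples.

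Wnt3a is a secreted Wnt ligand and chordin binds and blocks BMP ligands, and together they turn cap ectoderm toward neural crest, the migratory cell population that arises at the edge of the neural plate. Kctd15 is a BTB-domain protein known in zebrafish and Xenopus for restricting neural crest formation. Aqp3 encodes an aquaglyceroporin, a membrane channel for water and glycerol, which in mammals is abundant in the epidermis and the kidney collecting duct. Crisp genes encode secreted cysteine-rich proteins of the CAP superfamily, a family known in vertebrates from the reproductive tract and from venom, and in Xenopus from allurin, a sperm attractant of the egg jelly. Cib2 encodes a small calcium-binding protein with EF hands, known from mouse and human for its need in sound transduction by the hair cells of the inner ear.

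By the annotation of assembly 10.1 of Xenopus laevis, crisp1.5.S lies on chromosome 5S from 135748944 to 135753939, aqp3.L on chromosome 1L from 228561354 to 228623084, and cib2.S on chromosome 3S from 61605835 to 61620862. The suffixes L and S mark the long and short copies of each chromosome that this allotetraploid frog carries. The annotation held aqp3.S, the other copy of aqp3.L, but no gene under the symbols crisp1.5.L or cib2.L. No probe set stood under any of these symbols. A further probe set named aqp3-a could belong to either copy of aqp3, because that name is a synonym of both, and it is described with the relatives.

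The array values were log2 expression, between 2.38 and 15.58 over all probe sets, with array medians of 7.17 to 7.28. Pearson's r across probe sets was 0.971 to 0.986 between replicates, and between arrays with and without wnt3a and chordin 0.840 to 0.917. Precision is limited by the small number of arrays, and detection calls and scanner files were not used here. The wnt3a.S probe set averaged 12.59 ± 0.49 in wnt3a+chd+kctd15 caps, 12.76 ± 0.26 in wnt3a+chd caps, 4.58 ± 0.61 in kctd15 caps and 5.90 ± 0.63 in lacZ caps (log2, SD, n = 3 each). Chrd.1.S, the chordin probe set, averaged 9.62 ± 1.32 in wnt3a+chd+kctd15 caps, 9.69 ± 1.04 in wnt3a+chd caps, 6.26 ± 2.47 in kctd15 caps and 5.75 ± 3.14 in lacZ caps (log2, SD, n = 3 each), and its difference of 3.95 between wnt3a+chd and lacZ caps did not pass (limma adjusted p = 0.0652). With the replicate number as a block in the fit, that difference did pass. Of the injected genes, 1 probe set was called higher there without the block and 2 with it. The third kctd15 and lacZ arrays had chrd.1.S values of 9.08 and 9.37, within the range of the groups given chordin. The kctd15.L probe set went against the labels: it averaged 5.16 ± 1.63 in wnt3a+chd+kctd15 caps and 10.66 ± 0.40 in wnt3a+chd caps, and 4.79 ± 1.43 in kctd15 caps and 10.96 ± 0.26 in lacZ caps (log2, SD, n = 3 each). Where its probes lie relative to the injected mRNA is not given in the sources used here, so kctd15 below means the groups labelled with it, and the direction of every kctd15 comparison rests on those labels.

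A control probe set for the bacterial lac operon, which holds the lacZ gene, was also high in groups whose labels do not name lacZ. It averaged 4.96 ± 0.26 in wnt3a+chd+kctd15 caps, 13.95 ± 0.44 in wnt3a+chd caps, 13.53 ± 0.54 in kctd15 caps and 14.24 ± 0.32 in lacZ caps (log2, SD, n = 3 each). The wnt3a+chd+kctd15 group thus stood apart from the wnt3a+chd group in its lac signal as well as in its kctd15 label, and in these groups the parts of the 2 in any difference cannot be told apart. The kctd15 and lacZ groups were both high in it. Other probe sets for the same operon had group means below the array medians in all 4 groups. These means were 6.39 to 6.68, 3.92 to 4.01 and 3.75 to 4.20. In the last, the wnt3a+chd+kctd15 group was also the lowest, at 3.75 against 4.09 to 4.20. Which part of the operon each probe set covers is not given in the sources used here.

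Crisp1.5.S was below the array medians in control caps, high with wnt3a and chordin, and low again when kctd15 was added. Its log2 values were 6.89, 4.96 and 6.67 in the wnt3a+chd+kctd15 arrays and 12.00, 9.52 and 11.60 in the wnt3a+chd arrays. In the caps without wnt3a and chordin they were 4.05, 4.21 and 4.21 in kctd15 arrays and 4.73, 4.47 and 4.45 in lacZ arrays. All wnt3a+chd arrays lay above all others, and replicate 2 was the lowest in both groups that received wnt3a and chordin. The groups in order of level were wnt3a+chd, wnt3a+chd+kctd15, lacZ and kctd15, with no overlap between neighbours.

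Aqp3.L was high in every array with wnt3a and chordin and lower in those that also had kctd15. Its log2 values were 9.37, 8.35 and 8.79 in the wnt3a+chd+kctd15 arrays and 13.41, 12.94 and 13.18 in the wnt3a+chd arrays. They were 4.80, 5.21 and 4.80 in kctd15 arrays and 4.54, 4.55 and 7.79 in lacZ arrays. The third lacZ array stood more than 3 log2 units above the other lacZ arrays, but below every array with wnt3a and chordin. The groups followed the order wnt3a+chd, wnt3a+chd+kctd15, lacZ and kctd15 by their means, and the last 2 overlapped.

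Cib2.S was high in wnt3a+chd arrays and in the control range in most wnt3a+chd+kctd15 arrays. Its log2 values were 4.22, 4.28 and 5.80 in the wnt3a+chd+kctd15 arrays and 9.35, 7.99 and 8.89 in the wnt3a+chd arrays. They were 3.99, 3.85 and 3.96 in kctd15 arrays and 4.23, 3.90 and 4.42 in lacZ arrays. Here replicate 3 was the high array of the wnt3a+chd+kctd15 group, and the other 2 arrays of that group lay within the lacZ range. Only the wnt3a+chd group stood apart from the rest, and the groups below it overlapped with their neighbours.

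**Figure D1:**
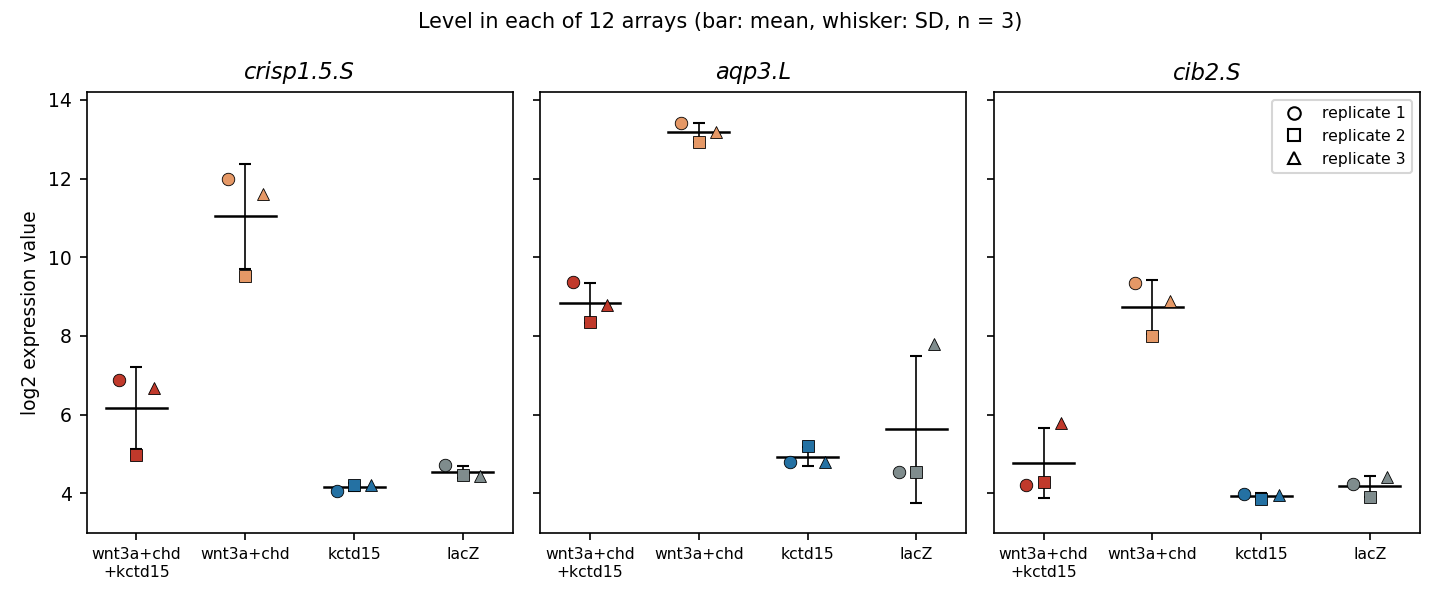
Log2 expression (vertical axis) of crisp1.5.S, aqp3.L and cib2.S in each of the 12 arrays, with the 4 groups along the horizontal axis, a symbol for each replicate number, a bar at the group mean and a whisker of 1 SD (n = 3). In each panel all 3 wnt3a+chd arrays lie above every other array, and the third lacZ array of aqp3.L, at 7.79, stands apart from its group.

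The decrease with kctd15 in wnt3a+chd caps is the value by which the genes were chosen, and it is given here as a description without a test. Crisp1.5.S averaged 6.17 ± 1.05 in wnt3a+chd+kctd15 caps and 11.04 ± 1.33 in wnt3a+chd caps (log2, SD, n = 3 each), a difference of -4.87 (SE 0.61) which is 29.2-fold lower on the linear scale. Aqp3.L averaged 8.84 ± 0.51 in wnt3a+chd+kctd15 caps and 13.18 ± 0.24 in wnt3a+chd caps (log2, SD, n = 3 each), a difference of -4.34 (SE 0.71), which is 20.2-fold lower. For cib2.S the means were 4.77 ± 0.89 in wnt3a+chd+kctd15 caps and 8.74 ± 0.69 in wnt3a+chd caps (log2, SD, n = 3 each), a difference of -3.98 (SE 0.42). Counted from the lowest difference over all 32475 probe sets, crisp1.5.S was number 2, aqp3.L number 4 and cib2.S number 6.

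The named probe sets around them in that order were kctd15.L at -5.50, the neural crest transcription factor snai2.L at -4.36, the tight junction gene cldn1.S at -4.05 and the neural crest transcription factor sox9.S at -3.82 (log2 differences). In all 3 genes every wnt3a+chd+kctd15 array was below every wnt3a+chd array, against a background of 5.24% of all probe sets that were lower without overlap in that comparison, and 0.647% of all probe sets were called in either direction by limma, 0.505% as lower and 0.142% as higher. Matched by replicate number, the differences were -5.11, -4.56 and -4.93 for crisp1.5.S and -4.04, -4.59 and -4.39 for aqp3.L. Those of cib2.S varied more, at -5.13, -3.71 and -3.09. When single arrays or replicate numbers were left out, the differences stayed between -5.62 and -4.26 for crisp1.5.S, between -4.60 and -4.10 for aqp3.L and between -4.49 and -3.40 for cib2.S. In whole caps, fewer cells of a type and less RNA per cell cannot be told apart.

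In caps without wnt3a and chordin, where the choice of the genes did not use the arrays, kctd15 gave no change that passed the test in any of the 3 genes. Among all probe sets 6.99% passed in this comparison, 2.68% as higher and 4.31% as lower in kctd15 caps. Crisp1.5.S averaged 4.16 ± 0.09 in kctd15 caps and 4.55 ± 0.16 in lacZ caps (log2, SD, n = 3 each), a difference of -0.39 (SE 0.61, 95% interval -1.75 to 0.97, limma adjusted p = 0.828). Its 3 kctd15 arrays all lay below its 3 lacZ arrays, as did those of 11.5% of all probe sets. Cib2.S averaged 3.93 ± 0.07 in kctd15 caps and 4.18 ± 0.26 in lacZ caps (log2, SD, n = 3 each), a difference of -0.25 (SE 0.42, 95% interval -1.19 to 0.69, limma adjusted p = 0.840). The SE, interval and p of these fits pool the spread of all 12 arrays, those that chose the genes included. With only the kctd15 and lacZ arrays fitted, limma adjusted p was 0.151 for crisp1.5.S and 0.467 for cib2.S. Both genes were below the array medians in lacZ caps already, so a decrease of the size seen with wnt3a and chordin could not have been measured here. Marker lists moved between these groups too: 9 of 22 endoderm probe sets rose and none fell by limma, with mean levels of 6.47, 6.91 and 6.36 in kctd15 arrays and 5.09, 5.22 and 5.31 in lacZ arrays, and 7 of 28 neural crest probe sets fell. Their part in the values of the 3 genes was not tested.

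Aqp3.L averaged 4.93 ± 0.24 in kctd15 caps and 5.63 ± 1.87 in lacZ caps (log2, SD, n = 3 each), a difference of -0.69 (SE 0.71, 95% interval -2.27 to 0.88, limma adjusted p = 0.699). The replicate differences were 0.25, 0.66 and -2.99, so the sign of the mean comes from the third lacZ array alone. Without lacZ replicate 3 the difference was 0.39 (limma adjusted p = 0.575). For the difference of -0.69, limma adjusted p was 0.757 with only the kctd15 and lacZ arrays fitted. The kctd15 and lacZ arrays overlapped. In lacZ replicates 1 and 2 aqp3.L was at 4.54 and 4.55, below the array medians. A decrease of the size seen with wnt3a and chordin could not have been measured in those arrays.

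The difference between the kctd15 effects in the 2 settings was -4.48 (SE 0.87) for crisp1.5.S, -3.65 (SE 1.00) for aqp3.L and -3.73 (SE 0.60) for cib2.S on the log2 scale. These values hold the arrays that chose the genes and are given without a test, and 1.14% of all probe sets were called for such a difference. Without lacZ replicate 3 the aqp3.L value was -4.73. In the setting without wnt3a and chordin the lacZ levels left little room for a decrease. Whether the kctd15 effect differs by setting thus cannot be told from these values.

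**Figure D2:**
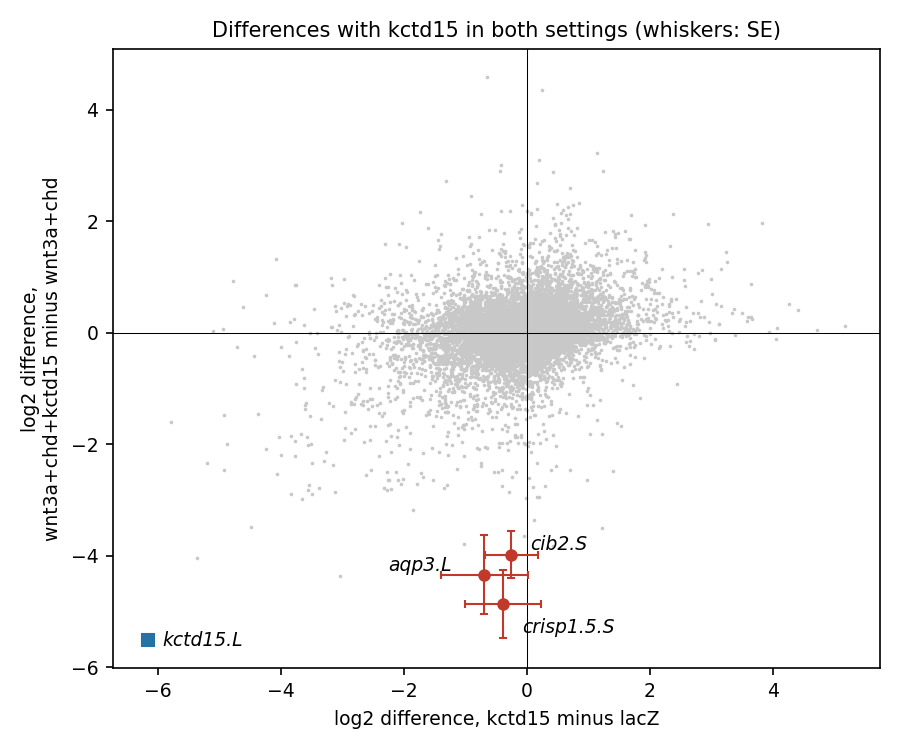
Log2 difference of wnt3a+chd+kctd15 minus wnt3a+chd (vertical axis) against that of kctd15 minus lacZ (horizontal axis), with all tested probe sets in grey, the 3 genes in red with SE whiskers and kctd15.L as a blue square. The 3 genes lie between -4.87 and -3.98 on the vertical axis, by choice, and between -0.69 and -0.25 on the horizontal one.

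All 3 genes were far higher in wnt3a+chd caps than in lacZ caps. The log2 difference was 6.49 for crisp1.5.S (90.0-fold), 7.55 for aqp3.L (187.4-fold) and 4.56 for cib2.S (23.6-fold). Aqp3.L was number 2, crisp1.5.S number 13 and cib2.S number 96 among all probe sets counted from the highest. Without lacZ replicate 3 the aqp3.L difference was 8.63. In each gene all wnt3a+chd arrays were above all lacZ arrays, which also held for 31.8% of all probe sets, and 41.3% of all probe sets were called in this comparison, 24.2% as higher and 17.1% as lower. The median over all probe sets was 0.11. These differences share the wnt3a+chd arrays with the choice of the genes and carry no test.

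Part of that log2 difference was left with kctd15 in aqp3.L and crisp1.5.S. The values here also share arrays with the choice of the genes and carry no test. On the linear scale the wnt3a+chd+kctd15 caps were 9.3-fold above lacZ caps for aqp3.L, 3.1-fold for crisp1.5.S and 1.5-fold for cib2.S. On the log2 scale they lay above lacZ caps by 3.21 (SE 0.71) for aqp3.L, by 1.63 (SE 0.61) for crisp1.5.S and by 0.58 (SE 0.42) for cib2.S. As a share of the log2 difference between wnt3a+chd and lacZ caps, that was 42.5% for aqp3.L, 25.0% for crisp1.5.S and 12.8% for cib2.S. When single arrays were left out, the share was 38.1% to 49.7% for aqp3.L and 19.5% to 34.3% for crisp1.5.S. That of cib2.S was 1.47% without wnt3a+chd+kctd15 replicate 3, where its difference from lacZ caps was 0.07, and 9.98% to 18.8% without any other array. The cib2.S share thus rests on that 1 array. The wnt3a+chd+kctd15 and lacZ arrays overlapped for cib2.S and not for the other 2 genes, and in 29.6% of all probe sets they were higher without overlap, with 41.9% called in either direction.

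Over the 12 arrays the log2 values of crisp1.5.S correlated with those of cib2.S at r = 0.971 and with those of aqp3.L at 0.935, and aqp3.L correlated with cib2.S at 0.909. These correlations are a description of 12 arrays in 4 groups, and the differences between the groups, which chose the genes, carry most of them. After the group means were subtracted, r was 0.634 for crisp1.5.S with cib2.S, 0.185 for crisp1.5.S with aqp3.L and 0.209 for aqp3.L with cib2.S. The largest aqp3.L deviations were those of the lacZ arrays, at -1.08, -1.08 and 2.16. There crisp1.5.S deviated by 0.18, -0.08 and -0.10 and cib2.S by 0.05, -0.28 and 0.24. The r values of aqp3.L thus depend strongly on the lacZ group, and r without it was not computed. Replicate 2 was the lowest array of the wnt3a+chd group in all 3 genes.

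Marker lists for the cell types that caps can hold were averaged per array. The neural crest list had 28 probe sets of 20 genes, such as snai2, sox9 and foxd3, with L and S copies counted as separate genes. Its mean log2 values were 7.37, 7.32 and 8.29 in wnt3a+chd+kctd15 arrays and 9.40, 8.80 and 8.80 in wnt3a+chd arrays. In kctd15 arrays it was at 5.64, 5.51 and 5.63 and in lacZ arrays at 6.03, 6.21 and 6.66. Of its 28 probe sets 7 fell and 1 rose in wnt3a+chd+kctd15 against wnt3a+chd caps by limma, with a median of -1.68, beside a median over all probe sets of 0.001. Over all probe sets 0.505% fell and 0.142% rose there. The mean neural crest level thus moved with the 3 genes between these groups, and the wnt3a+chd+kctd15 array with its highest crest level, replicate 3, was also the highest for cib2.S but not for crisp1.5.S or aqp3.L. Its part in the result was not tested.

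The neural plate list, 20 probe sets that include sox2 and sox3, had no probe set past the threshold between these groups. It was at 11.11, 10.95 and 10.96 in wnt3a+chd+kctd15 arrays and 10.58, 10.89 and 10.73 in wnt3a+chd arrays. The epidermis list, 27 probe sets of keratins and ectodermal transcription factors, had 6 lower and 0 higher there, with levels of 8.35, 9.12 and 9.04 in wnt3a+chd+kctd15 arrays and 9.85, 8.68 and 9.78 in wnt3a+chd arrays. Over all probe sets 0.505% were called lower there and 0.142% higher. A probe set of the transcription factor tp63.S averaged 6.36 ± 0.05 in wnt3a+chd+kctd15 and 8.21 ± 0.21 in wnt3a+chd caps (log2, SD, n = 3 each). Keratins spread widely: krt12.4.L averaged 11.26 ± 1.84 and 12.01 ± 1.08, and krt12.4.S 10.11 ± 2.56 and 9.13 ± 3.18, in the same order. In kctd15 and lacZ arrays, where aqp3.L was low, the epidermis list was at 11.26 to 11.46 and at 11.94 to 12.17.

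Some lists were high in single arrays. The third lacZ array, the one with high aqp3.L, also had the highest muscle level of the lacZ arrays, at 6.69 against 4.77 and 4.67 in lacZ replicates 1 and 2. In the same array the notochord list was at 6.94, against 4.63 and 4.87 in the other 2, and the neural plate list at 8.79, against 6.59 and 6.76. The third kctd15 array had a neural plate level of 8.39 and a notochord level of 6.21, with aqp3.L at 4.80.

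Replicate 2 of the wnt3a+chd+kctd15 group had a muscle level of 7.12, against 4.92 and 5.63 in its other replicates and 4.74, 6.30 and 6.30 in the wnt3a+chd arrays, and a level of 8.42 for the list of ionocyte, multiciliated and small secretory cells, against 5.98 and 6.13. Crisp1.5.S and aqp3.L had their lowest values of the group in that array. None of the 30 muscle, 13 notochord or 21 ionocyte and multiciliated probe sets passed the limma test in wnt3a+chd+kctd15 against wnt3a+chd caps. The share of all probe sets that passed there was 0.647%. The part of these lists in the levels of the 3 genes was not tested. With lacZ replicate 3 and wnt3a+chd+kctd15 replicate 2 both left out, an alternative added after the values were seen, the kctd15 minus lacZ difference of aqp3.L was 0.39 (limma adjusted p = 0.443).

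**Figure D3:**
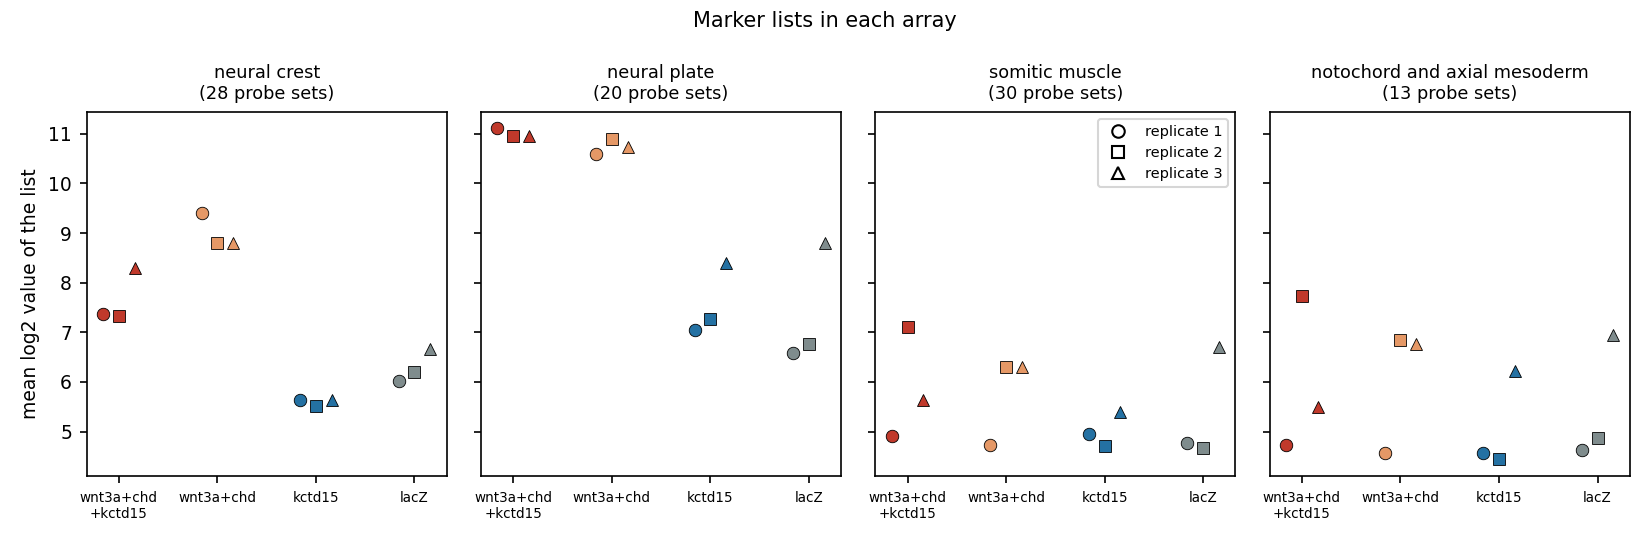
Mean log2 value of the neural crest, neural plate, somitic muscle and notochord lists (panels) in each of the 12 arrays by group, with a symbol for each replicate number. The neural crest list lies between 7.32 and 8.29 in wnt3a+chd+kctd15 arrays and between 8.80 and 9.40 in wnt3a+chd arrays, and the third lacZ array is the highest of its group in all 4 panels.

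No relative of the 3 genes passed the test as lower in wnt3a+chd+kctd15 against wnt3a+chd caps without the replicate number as a block, and 1 did with it. That was tesc.L, a calcineurin B-like protein, at -1.24 (limma adjusted p = 0.121, and 0.0444 with the block). None of 11 further aquaporin probe sets, 6 of the CAP superfamily and 4 of integrin and hair-cell partners of cib2 passed the limma test there, with medians of -0.10, 0.08 and -0.12 on the log2 scale. Over all probe sets 0.505% were called lower and 0.142% higher there without the block, and 1.36% in either direction with it. At such shares lists of this size hold few or no calls, so these counts tell little about the families. Of 22 probe sets of calcium-binding relatives of cib2, 0 fell and 1 rose without the block. The one that rose was chp1.L, of the same group, at 0.93 (limma adjusted p = 0.0369), and its call held in 1 of 12 fits with an array left out, with adjusted p up to 0.138 without wnt3a+chd+kctd15 replicate 1.

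The probe set named aqp3-a had its highest group mean in wnt3a+chd caps, as aqp3.L did. Its log2 values were 4.24, 3.74 and 5.28 in wnt3a+chd+kctd15 arrays and 5.81, 5.26 and 7.81 in wnt3a+chd arrays. They were 3.47, 3.30 and 3.51 in kctd15 arrays and 3.75, 3.34 and 3.80 in lacZ arrays. Replicate 3 was the highest array in both groups with wnt3a and chordin, and those groups overlapped. Aqp3-a was higher in wnt3a+chd than in lacZ caps by 2.66 (SE 0.57, limma adjusted p = 0.00342). Its difference with kctd15 in those caps was -1.87 (SE 0.57, limma adjusted p = 0.320, and 0.0764 with the replicate number as a block), and without wnt3a and chordin -0.20 (limma adjusted p = 0.914).

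Of the 11 aquaporin probe sets, aqp3-a included, 2 rose and 3 fell in wnt3a+chd against lacZ caps. Over all probe sets 24.2% rose and 17.1% fell there, so the counts show little that is particular to aquaporins. Among the other aquaporins, aqp1.L, a water channel, rose in wnt3a+chd against lacZ caps by 0.50 (limma adjusted p = 0.00550). All 3 probe sets of aqp11.L, a channel of intracellular membranes, fell there by 0.69, 0.57 and 0.42, with limma adjusted p of 0.00208, 0.00147 and 0.0144. The last of these calls ended without lacZ replicate 3 (adjusted p = 0.0535). In kctd15 against lacZ caps none of the 11 aquaporin probe sets passed, and with the replicate block 1 did, aqp1.L at 0.33 (limma adjusted p = 0.128, and 0.0423 with the block). The share of all probe sets that passed there was 6.99%, and 15.4% with the block.

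In the CAP superfamily, glipr2.S, a Golgi-associated member, fell in kctd15 against lacZ caps by 2.82 (limma adjusted p = 0.000484), where crisp1.5.S did not pass. Its call held with each of the 12 arrays left out. The probe set of the other copy, glipr2.L, averaged 7.57 ± 0.48 in kctd15 caps and 7.14 ± 0.16 in lacZ caps (log2, SD, n = 3 each) and did not pass. In wnt3a+chd against lacZ caps glipr2.S rose by 0.87 (limma adjusted p = 0.0363), a call that held in 7 of 12 such fits, with adjusted p up to 0.123 without wnt3a+chd replicate 2.

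Cib1.L, the closest named relative of cib2 on the array and an integrin-binding protein, fell in wnt3a+chd against lacZ caps by 1.57 (limma adjusted p = 3.24e-05), while cib2.S was higher there. Of the 22 calcium-binding probe sets, 8 fell and 2 rose in that comparison, with a median of -0.39, beside 17.1% of all probe sets that fell and 24.2% that rose. With the replicate block 11 fell and 3 rose, beside 53.9% of all probe sets called in either direction. The neuronal calcium sensor ncs1.L fell by 2.15 (limma adjusted p = 7.51e-07), tesc.L by 1.31 (limma adjusted p = 0.00415), and hippocalcin, hpca.S, rose by 2.30 (limma adjusted p = 0.00113). These 4 calls held with each of the 12 arrays left out.

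In kctd15 against lacZ caps, 4 of the 22 probe sets fell and 1 rose, beside 4.31% of all probe sets that fell and 2.68% that rose. With the replicate block 4 fell and 2 rose, beside 15.4% of all probe sets called in either direction. The call gained was kcnip4.L at 0.61 (limma adjusted p = 0.332, and 0.0359 with the block). Ncs1.L fell by 1.32 (limma adjusted p = 9.61e-05), and probe sets of neurocalcin delta, ncald.L, fell by 1.09 and 0.90 (limma adjusted p = 0.0363 and 0.00941). The first ncald.L call ended in 5 of 12 fits with an array left out and the second in none. A further ncald.L probe set averaged 4.58 ± 0.60 in kctd15 caps and 5.20 ± 0.12 in lacZ caps (log2, SD, n = 3 each). Visinin-like vsnl1.L rose by 1.88 (limma adjusted p = 0.0250), and its call held in 6 of 12 such fits, with adjusted p up to 0.0923 without lacZ replicate 2. Integrin beta-1, itgb1.S, fell by 0.91 (limma adjusted p = 0.0240), held in 8 of 12, with adjusted p up to 0.0820 without kctd15 replicate 1. Neither probe set of the other copy, itgb1.L, passed. They averaged 8.4 ± 0.4 and 11.8 ± 0.3 in kctd15 caps and 8.8 ± 0.1 and 12.2 ± 0.3 in lacZ caps (log2, SD, n = 3 each). With the replicate block the second passed, at -0.34 (limma adjusted p = 0.433, and 0.0367 with the block).

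**Figure D4:**
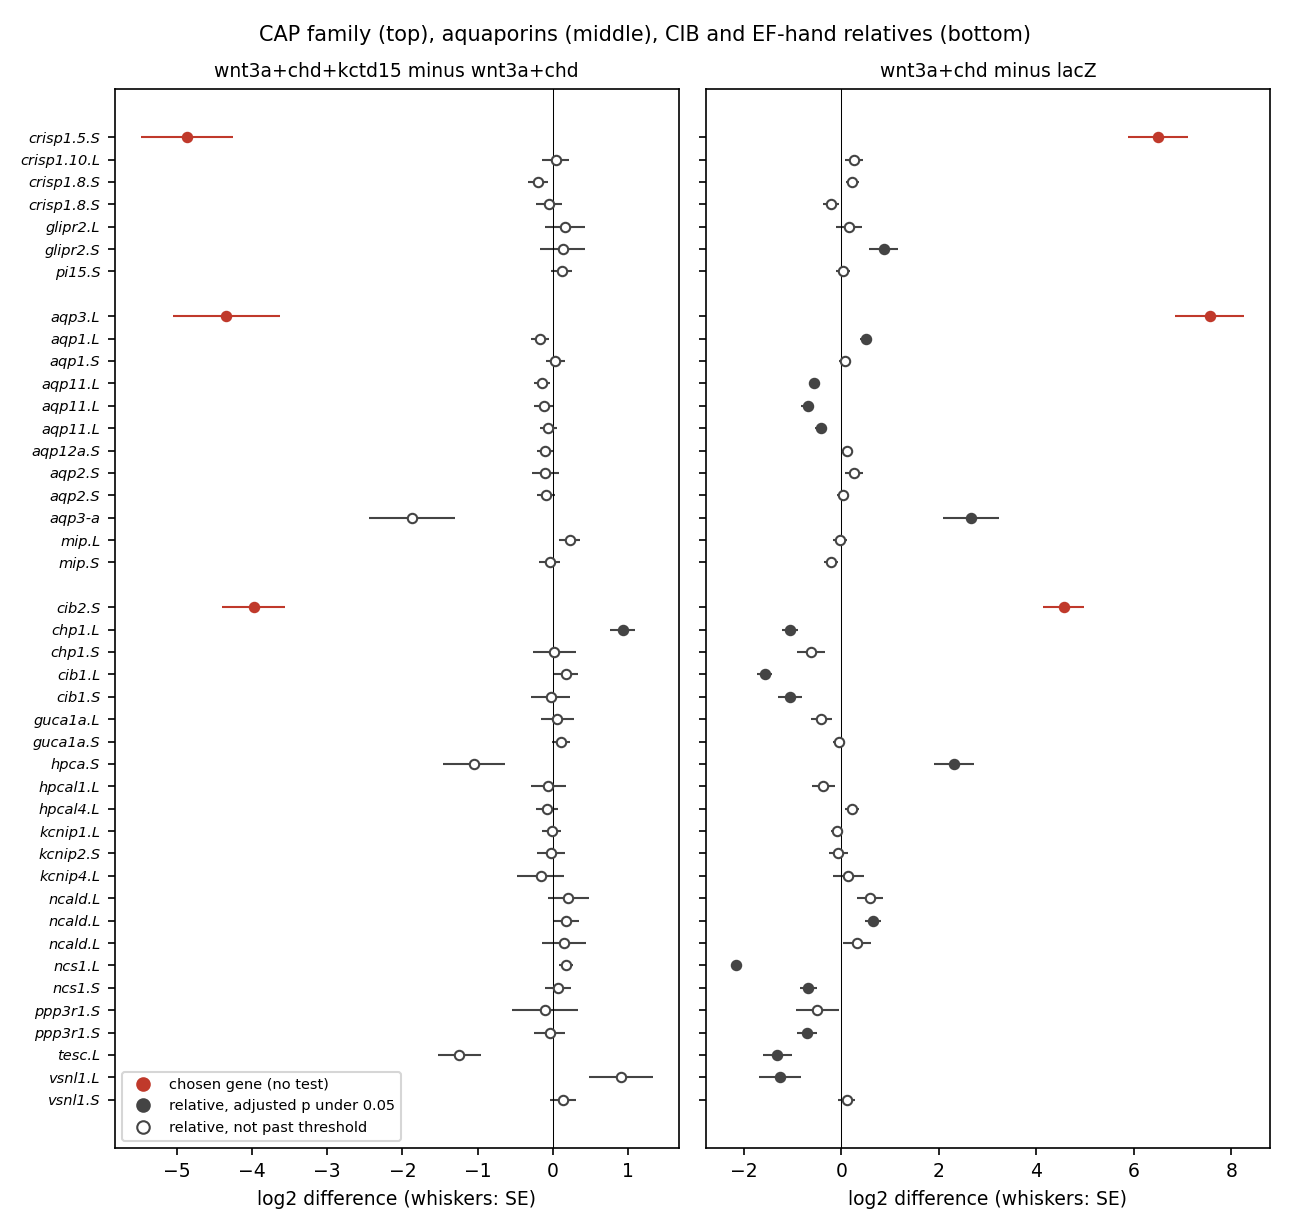
Log2 differences with SE whiskers for the 3 genes (red) and each probe set of the CAP superfamily, the aquaporins and the calcium-binding relatives, in wnt3a+chd+kctd15 minus wnt3a+chd (left panel) and wnt3a+chd minus lacZ (right panel); filled dark points passed the limma test and open points did not. On the left the 3 genes lie between -4.87 and -3.98, the lowest relative is aqp3-a at -1.87, and only chp1.L, at 0.93, is filled.

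Genes next to the 3 on the chromosome were measured in part. Over all probe sets 0.647% were called in wnt3a+chd+kctd15 against wnt3a+chd caps and 6.99% in kctd15 against lacZ caps. Against lacZ caps, 41.3% were called in wnt3a+chd caps and 41.9% in wnt3a+chd+kctd15 caps. Near crisp1.5.S these were crisp1.8.S, cyp2f1.S and a further gene without a full name, with 4 probe sets in all, at mean log2 levels per array of 3.66 to 4.03, and none passed the limma test in any of the 4 comparisons of 2 groups. Near aqp3.L, nol6.L, dcaf12.L and tpgs2.L were measured, and none passed in wnt3a+chd+kctd15 against wnt3a+chd caps or in kctd15 against lacZ caps. Tpgs2.L fell by 0.89 in wnt3a+chd+kctd15 against lacZ caps and by 0.94 in wnt3a+chd against lacZ caps (limma adjusted p = 0.0299 and 0.0235), each held in 10 of 12 fits with an array left out. These calls ended without lacZ replicate 3 (0.109 and 0.0884), the first also without wnt3a+chd+kctd15 replicate 1 (0.0989) and the second without wnt3a+chd replicate 1 (0.0857). Nol6.L rose in wnt3a+chd+kctd15 against lacZ caps by 0.46 (limma adjusted p = 0.0455), held in 3 of 12, with adjusted p up to 0.170 without lacZ replicate 1. With the replicate block it also passed in wnt3a+chd against lacZ caps, at 0.42 (limma adjusted p = 0.0649, and 0.00867 with the block). Near cib2.S, none of the 5 probe sets of fbxl22.S and idh3a.S passed in wnt3a+chd+kctd15 against wnt3a+chd caps without the block. With it 1 did, of idh3a.S, at -0.61 (limma adjusted p = 0.144, and 0.0382 with the block). Idh3a.S, a subunit of mitochondrial isocitrate dehydrogenase, fell in kctd15 against lacZ caps by 0.80 and 0.75 in its 2 probe sets (limma adjusted p = 0.00942 and 0.0347). The second call held in 6 of 12 fits with an array left out, with adjusted p up to 0.121 without lacZ replicate 2.

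The genes with the pattern most like each member were taken by Pearson's r of log2 values over the 12 arrays. They came from 1923 probe sets with 1 symbol and an SD over the arrays of at least 1 log2 unit. Members, placeholder symbols and probe sets without a symbol were left out. For crisp1.5.S they were the transcriptional repressor hes2.L (r = 0.980), the tight junction gene cldn6.1.L (0.979), the astacin-like metalloprotease astl2e.2.L (0.970), the ligand bmp2.S (0.959) and the PDGF receptor pdgfra.L (0.956). Aqp3.L was most like ptgds.S, a prostaglandin D synthase (0.973), pdgfra.L (0.968), kiaa1210.L (0.962), the neural crest transcription factor foxd3.S (0.959) and cldn6.1.L (0.959). Cib2.S was most like cyp46a1.2.L, a cytochrome P450 of the cholesterol hydroxylase family (0.979), vsir.L (0.970), pdgfra.L (0.968), the matrix metalloprotease mmp28.L (0.967) and tmem163.L (0.967).

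Pdgfra.L stood in all 3 lists. All 12 of these genes had every wnt3a+chd array above every lacZ array and every wnt3a+chd+kctd15 array below every wnt3a+chd array, which likeness over these groups entails, and the kctd15 and lacZ arrays overlapped in all 12. Their log2 differences of wnt3a+chd+kctd15 minus wnt3a+chd ran from -3.36 in astl2e.2.L to -1.96 in bmp2.S. Of the wnt3a+chd minus lacZ differences, foxd3.S had the largest of the 12, at 6.90, beside 7.55 for aqp3.L. The third lacZ array was high in ptgds.S and foxd3.S as it was in aqp3.L. To a lesser degree it also stood above the other lacZ arrays in pdgfra.L, at 5.36, and in mmp28.L, at 5.79.

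**Figure D5:**
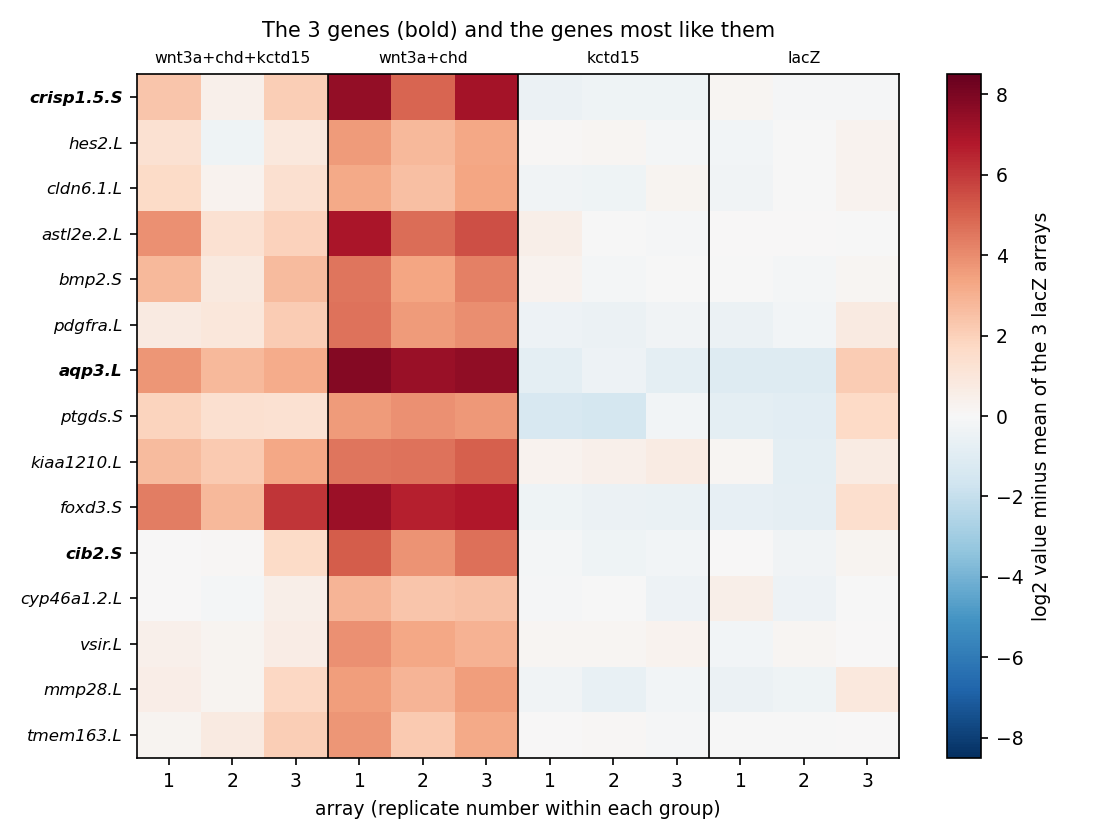
Log2 values minus the mean of the 3 lacZ arrays (colour) for crisp1.5.S, aqp3.L and cib2.S (bold) and the 5 genes most like each by Pearson's r, in the 12 arrays by group and replicate. The wnt3a+chd columns are the highest in every row. The third lacZ array is raised in the rows of aqp3.L, ptgds.S and foxd3.S, and less so in those of pdgfra.L and mmp28.L.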

How the data were processed

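RNA of Xenopus laevis animal caps was hybridised to 3' Affymetrix arrays, 12 arrays in 4 groups of 3 by the injected mRNA in the titles. The authors deposited log2 expression per probe set, made with Partek per the submitters' processing notes. For Partek's version, its background correction, its summary of probes and any normalization, the entry is: not given in the sources used here. Controls of Affymetrix (96) and reporter probe sets (64) were dropped from the 32635. Of the 32475 tested, 15495 had 1 symbol in the platform annotation, 279 several and 16701 none, and 15384 were matched to current names of the assembly 10.1.

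All 12 arrays were fitted with 4 group means in limma 3.58.1 (lmFit, eBayes, R 4.3.3). Two-sided p-values were adjusted by the Benjamini-Hochberg method over all tested probe sets per contrast, with 0.05 as threshold. The 5 contrasts were kctd15 minus lacZ, wnt3a+chd+kctd15 minus wnt3a+chd, wnt3a+chd minus lacZ, wnt3a+chd+kctd15 minus lacZ, and the interaction. The members, lists and tests were chosen with earlier results of these data known. Members were tested in kctd15 minus lacZ only, since the other contrasts share arrays with their choice. In simulated data of this size, 87% of changes of 2 log2 units and 55% of 1 unit were recovered in that contrast. The simulation drew independent noise with 1 SD per probe set and changed random probe sets. It held no shared deviations of replicates, and its shares do not give the recovery for the members.

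Named genes were the members, per family list and contrast up to 4 genes past the threshold with the largest difference (or the one with the smallest p), the measured genes among 5 annotated neighbours on each side, the 5 genes most like each member, and the injected genes. The genes next to the members in the order of the choosing contrast were named after their values were seen.

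Arrays of the same replicate number deviated together from their group means (r of 0.18 to 0.71 over 18 pairs), so the number was taken to pair the samples. Over 36 pairs of different number r was -0.51 to 0.10. Deviations cancel within a group, so positive r for the same number brings negative r for different numbers. The latter values are thus no separate evidence of pairing. What it marks is not given. The main fit held no term for it, so p-values are unpaired unless given with the block. Alternatives were the replicate block, quantile normalization, median centring, a variance prior with trend, array weights, dim probe sets left out, only the arrays of 2 groups, and each array or replicate number left out.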

Additional observations from a re-analysis of the deposited data

Results flagged for a closer look

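For a pair of relatives, glipr2.S and ncs1.L, the effect of kctd15 differed between the settings by the limma interaction test without the replicate block. The difference was taken as the effect with wnt3a and chordin minus the effect without. Calls were made in 1 of 6 CAP superfamily and 1 of 22 calcium-binding probe sets, beside 1.14% of all. None of the 11 aquaporin or 4 integrin and hair-cell probe sets passed. With the block, ncald.L probe sets at 1.30 and 1.08 also passed, beside 3.27% of all (limma adjusted p = 0.166 and 0.0643 without it, 0.0248 and 0.0428 with it). For glipr2.S, of the same superfamily as crisp1.5.S, the difference of effects was 2.95 (limma adjusted p = 0.0110). It averaged 11.43 ± 0.29 in wnt3a+chd+kctd15 caps and 11.30 ± 0.25 in wnt3a+chd caps, and 7.61 ± 0.69 in kctd15 caps and 10.44 ± 0.03 in lacZ caps (log2, SD, n = 3 each). The probe set of its other copy, glipr2.L, did not pass the interaction test. For ncs1.L, a calcium sensor, the difference was 1.501 (limma adjusted p = 0.00163). It averaged 5.82 ± 0.13 in wnt3a+chd+kctd15 caps and 5.64 ± 0.04 in wnt3a+chd caps, and 6.47 ± 0.08 in kctd15 caps and 7.79 ± 0.05 in lacZ caps (log2, SD, n = 3 each). In wnt3a+chd caps it was already below its kctd15 level, which left less room for a decrease there. The probe set of its other copy, ncs1.S, did not pass the interaction test. That probe set averaged 8.7 ± 0.2 in lacZ caps and 8.1 ± 0.2 in each of the other groups (log2, SD, n = 3 each).

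In glipr2.S and ncs1.L the decrease with kctd15 was measured in caps without wnt3a and chordin, the opposite setting to that of crisp1.5.S, aqp3.L and cib2.S. Both calls use the wnt3a+chd+kctd15 group, which also differed from the wnt3a+chd group in its lac signal. Both held with each of the 12 arrays left out. They were lost without replicate 1 of every group (adjusted p = 0.310 for glipr2.S and 0.162 for ncs1.L) and without replicate 2 (0.106 for glipr2.S and 0.110 for ncs1.L). The glipr2.S call was also lost with lacZ replicate 3 and wnt3a+chd+kctd15 replicate 2 left out (0.0507).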

How the results depend on the processing

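The differences of crisp1.5.S and cib2.S kept their direction under every alternative run, in all contrasts, and no member passed the test in kctd15 minus lacZ under any. Aqp3.L reversed there, to 0.39 without lacZ replicate 3 (adjusted p = 0.575) and with the arrays of highest muscle level left out (adjusted p = 0.443), and to 0.46 without replicate 3 of every group (adjusted p = 0.629). Its range with arrays left out was -1.37 to 0.46, and that of its interaction -4.77 to -2.85. With the replicate number as a block, which pairs the samples, 4992 probe sets were called in kctd15 minus lacZ (2269 without), 443 in wnt3a+chd+kctd15 minus wnt3a+chd (210 without) and 1063 in the interaction (371 without). The block changed 18 calls of relatives and neighbours over the 5 contrasts, all gained. Members were tested in kctd15 minus lacZ only, and none passed there with the block. Their limma adjusted p was 0.644 for crisp1.5.S, 0.559 for aqp3.L and 0.688 for cib2.S. With dim probe sets left out the counts were 136 in wnt3a+chd+kctd15 minus wnt3a+chd and 202 in the interaction, over fewer probe sets. Only the arrays of the 2 groups gave 49 in wnt3a+chd+kctd15 minus wnt3a+chd. The arrays of highest muscle level left out gave 236 in the interaction. With arrays left out, counts ran from 409 to 2364 in kctd15 minus lacZ, 6 to 200 in wnt3a+chd+kctd15 minus wnt3a+chd, 8562 to 13439 in wnt3a+chd minus lacZ and 0 to 599 in the interaction. The count of 0 was by limma without replicate 1 of every group, where 2716 had an unadjusted p under 0.05. Across all settings, single relatives and neighbours were followed only in contrasts where they were named or had passed. The 18 calls above were counted over all contrasts, and here a loss was easier than a gain. With single arrays or replicate numbers left out, 127 of these values lost and 3 gained the call. Under the other settings 25 lost and 6 gained it, and none reversed under any. Crisp1.5.S and cib2.S had means at or below the median of all and have no value with dim probe sets left out. With only 2 groups there is no interaction. The 3 arrays a group and unknown detection limit every value near the floor.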
